A study of Arabidopsis thaliana with 8 samples.

Results

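The 171 probe sets described here were raised by drought in every pair of arrays of a study of Arabidopsis thaliana rosette leaves, out of 22746 probe sets of the Affymetrix ATH1 array (0.752%). They were chosen on the drought difference itself. Signals below the 40th percentile of their own array, which lay between 59.5 and 90.8, were raised to it, and the log2 difference of drought minus control had to reach 1.5 in both replicates of both genotypes. In all, 182 probe sets met this threshold, and 11 were then set aside. Of these, 9 stood on a list of 17, which included SAG29, LTI30 and HIS1-3, and 2 belonged to gene families dropped by symbol (ALDH7B4 and CML41). A family could be matched only through a gene symbol, and 92 of the 171 are not listed in the probe annotation. The drought values below are therefore a description of the probe sets chosen and carry no test.

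Each of 4 groups had 2 arrays. Plants of the dor mutant, a SALK T-DNA insertion line in the Columbia background, and Columbia wild type plants were grown in soil at 22 °C with 16 h of light and 8 h of dark. Drought plants of either genotype were watered for 24 days and then received no water for 10 days, and control plants were watered for 34 days. The groups are dor drought, wild type drought, dor control and wild type control, with dor represented by 1 insertion line. The arrays are labelled as biological replicates, but the labels do not say how plants were divided or pooled, so p-values measure only the spread between these arrays, and 2 arrays per group limit the precision of every value.

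When soil dries, roots and leaves accumulate abscisic acid (ABA), which closes stomata through receptors, protein phosphatases and SnRK2 kinases and turns on genes in the leaf. Known targets code for proteins that protect membranes and other proteins during water loss, for transporters, and for enzymes that remake sugars and amino acids. Leaves short of carbon also break down branched-chain amino acids and lysine as alternative fuel. DOR codes for an F-box protein, the substrate-binding part of a ubiquitin ligase, and is known in Arabidopsis as a repressor of the drought response of guard cells.

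DOR itself had signals of 2.3 to 21.4, under the 40th percentile on all 8 arrays, so it cannot serve as a test of genotype. The labelled tissue was checked by markers. RCA, the Rubisco activase gene of mesophyll, was at 9383 in dor drought replicate 1 and at 21538 to 36420 on the other 7 arrays. The guard cell markers FMA and CHX20 were above the 40th percentile on all 8 arrays, while AT1G22690 was at 11.6 and 26.2 under drought in dor and 96.3 and 198 under drought in wild type, against 7167 and 1571 with water in dor and 7791 and 2331 with water in wild type. The root marker EXPA7 and the seed storage gene AT1G03890 reached it on 0 arrays, and EXPA18 and OLEO3 on 1 each. The arrays also divided by replicate number. Those of replicate 1 had median signals of 96.8 to 119.6, and those of replicate 2 had 163 to 170.7. Poly-A spike-in RNAs had a geometric mean of 278 to 440 in replicate 1 and 17.7 to 72.7 in replicate 2. Watered plants of replicate 1 had the lowest 5 prime to 3 prime actin ratios, 0.245 in dor and 0.229 in wild type, with the remaining 6 arrays at 0.366 to 0.575. The part of these marker and array differences in the results below was not tested, and values within each replicate are given where groups of both genotypes are compared.

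The median signal of the 171 probe sets in replicates 1 and 2 was 2926 and 2223 under drought in dor, 1307 and 1137 under drought in wild type, 118 and 263 with water in dor, and 103 and 135 with water in wild type. The lowest drought signal lay above the highest control signal for 166 of the 171, against 10.5% of the 15523 probe sets tested, and the drought contrast chose them, so this share is a description. In 116 the gap between these signals was at least 2-fold, a cut for which the share over all tested probe sets was not counted. Taken within dor alone the signals of 169 did not overlap, against 26.5% of those tested, and within wild type those of all 171, against 22.9%. CYP71B26, a cytochrome P450 gene named here after its values were seen, is 1 of the 5 that overlap over both genotypes, with 1966 and 7846 under drought in dor, 579 and 5268 under drought in wild type, 273 and 1577 with water in dor and 181 and 456 with water in wild type. Its dor control replicate 2 signal lies above its wild type drought replicate 1 signal. In bulk leaf RNA a change in the share of a cell type and a change in RNA per cell cannot be told apart.

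The size of the drought difference varied with the pair. Its median over the 171 was 3.94 in the first dor pair (1.52 to 8.98), 2.68 in the second (1.51 to 6.81), 3.10 in the first wild type pair (1.51 to 6.77) and 2.44 in the second (1.51 to 7.04), on the log2 scale with low signals raised. For 97 probe sets the first dor pair gave the largest of the 4 differences, and for 68 the second wild type pair gave the smallest. The smallest of the 4 was at least 2 for 74 probe sets. The dor difference exceeded the wild type difference for 118 in replicate 1 and 100 in replicate 2. It did so in both replicates for 71, while the wild type one was larger in both for 24. These counts use the differences that chose the members, and the same shares over all probe sets were not counted. The replicate 1 difference exceeded that of replicate 2 for 146 probe sets in dor and 113 in wild type. The same order held for the whole array: 14.5% and 3.57% of all 22746 probe sets reached 1.5 in dor replicates 1 and 2, and 11.9% and 3.92% in wild type. Replicate 2 minus replicate 1 gave a median over the members of -0.39 under drought in dor, -0.05 under drought in wild type, 1.0 with water in dor and 0.34 with water in wild type. Over all tested probe sets the same medians were 0.23, 0.26, 0.40 and 0.45, in that order of groups. The number of probe sets that pass was 335 when replicate 2 alone had to pass and 1850 when replicate 1 alone had to. It was 355 without the second wild type pair.

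**Figure D1:**
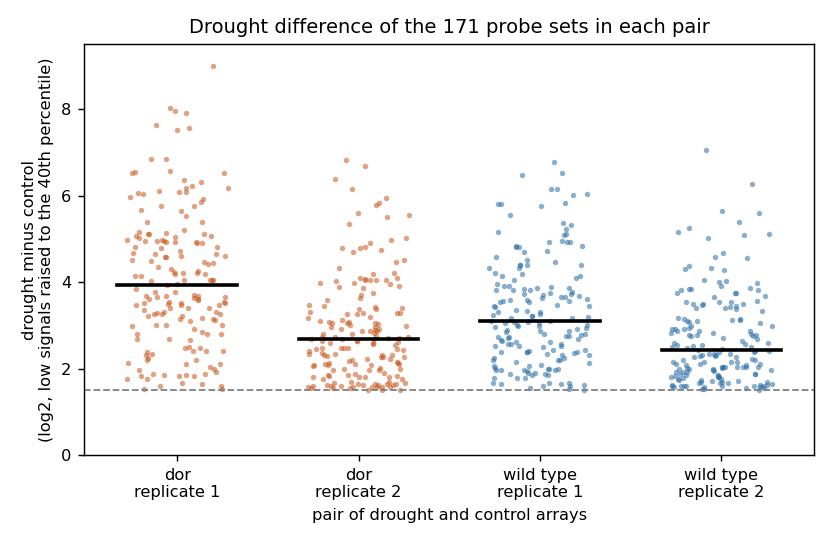
Drought minus control difference (log2, signals below the 40th percentile raised to it) of the 171 probe sets in each pair of arrays; points are probe sets, black bars medians and the dashed line the threshold of 1.5. The medians are 3.94, 2.68, 3.10 and 2.44 from left to right.

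In 16 members all control arrays were under the 40th percentile and in 93 none was. Of the others, 23 had 1 such array, 19 had 2 and 20 had 3. Where all 4 lie under it, the difference is measured from the raised floor. AT4G20320, which codes for a CTP synthase, is one, with 12141 and 2377 in dor and 1348 and 407 in wild type under drought, against 3.8 and 57.5 in dor and 25.5 and 38 in wild type under control watering. AT2G21820 is another, with 7425 and 3442 under drought in dor, 1080.3 and 1784 under drought in wild type, 62.9 and 63.1 with water in dor and 23.3 and 27.2 with water in wild type. On all drought arrays both genes stood above the floor.

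The next members are named for a large smallest pair difference, which is the size of the least rise and not its evenness. AT3G53980, which codes for a lipid transfer protein-like member of the 2S albumin superfamily, had the highest such value, with signals of 9659 and 4689.9 in dor and 3525 and 3173 in wild type under drought, against 103 and 31.6 in dor and 127 and 60.6 in wild type under control watering. Its pair differences were 6.55 and 5.79 in dor and 4.80 and 5.15 in wild type. AT2G37870, of the same superfamily, had 6238 and 9877 under drought in dor, 1897 and 5328 under drought in wild type, 291 and 119.6 with water in dor and 108 and 109.7 with water in wild type, with pair differences of 4.42 and 6.37 in dor and 4.13 and 5.60 in wild type. The 4 drought signals of either gene lie above all 4 of its control signals.

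The same superfamily holds 2 more members, chosen after their values were seen. AT1G62510 had 6234 and 3687 in dor and 6845 and 1402 in wild type under drought, against 1312 and 577 in dor and 812 and 354 in wild type under control watering. AT4G33550 had 3726 and 4477 under drought in dor, 901 and 1489 under drought in wild type, 297 and 163 with water in dor and 230.5 and 53.2 with water in wild type. AT1G62510 is among the members where the groups almost meet, since its lowest drought signal is 1.07-fold above its highest control signal.

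AT1G05340 codes for a small protein with a cysteine-rich transmembrane module, a family known for stress induction in plants. Its signal was 42048 and 9534 in dor and 3736 and 1308 in wild type under drought, against 163 and 60.2 in dor and 90.9 and 70.8 in wild type under control watering, and its pair differences were 8.01 and 6.81 in dor and 5.36 and 3.87 in wild type. Both drought arrays of dor lie above both of wild type, while the control arrays of the genotypes overlap. DI21, named drought-induced 21, had 16199 and 3444 under drought in dor, 2813 and 952 under drought in wild type, 239.6 and 133 with water in dor and 119 and 44.2 with water in wild type. Its dor arrays also lie above its wild type arrays under drought, and both control arrays of dor lie above both of wild type. SIS, a salt-induced serine-rich protein gene, had 18711 and 3176 in dor and 15390.5 and 1289 in wild type under drought. Under control watering it had 163 and 291 in dor and 275 and 83.7 in wild type. Under drought its replicates differed more than its genotypes did. The S40 family gene AT2G28400, whose family is known from senescing leaves, had 5545 and 3033 under drought in dor, 2206 and 1047 under drought in wild type, 228 and 311 with water in dor and 151 and 138 with water in wild type.

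**Figure D2:**
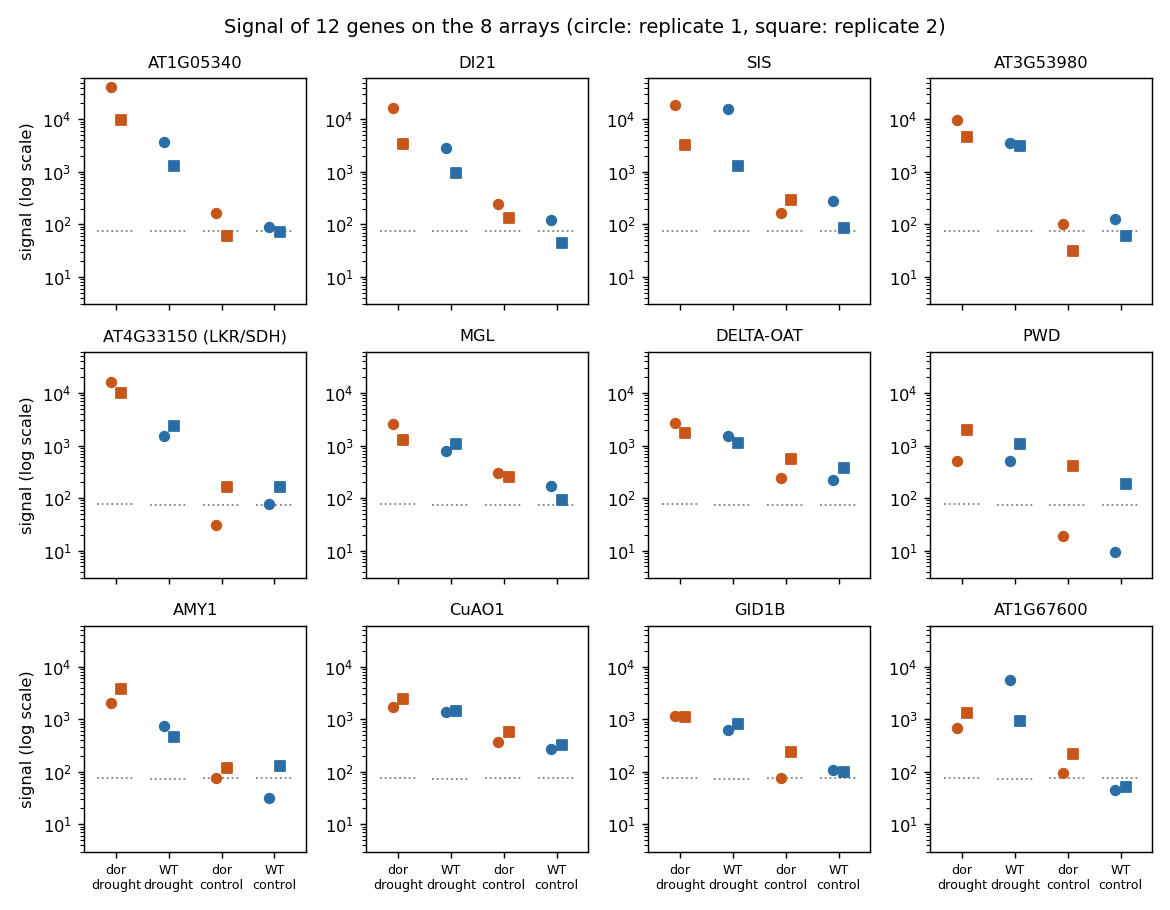
Signal on a log axis of 12 member genes on each of the 8 arrays; circles are replicate 1, squares replicate 2, orange is dor, blue wild type, and dotted lines mark the mean 40th percentile of the group's arrays. All 12 have every drought signal above every control signal; PWD comes closest, at 1.23-fold.

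Among enzymes of amino acid breakdown 3 members are found. AT4G33150 codes for the bifunctional enzyme LKR/SDH, which opens the lysine breakdown pathway, and its signal was 16001 and 9936 in dor and 1539 and 2341 in wild type under drought, against 30.2 and 162 in dor and 76.6 and 165 in wild type under control watering. Its differences were 7.96 and 5.94 in dor and 4.33 and 3.82 in wild type, and all dor drought signals lie above the wild type ones. MGL, the methionine gamma-lyase gene, had 2615 and 1261 under drought in dor, 787 and 1056 under drought in wild type, 300.5 and 247 with water in dor and 166 and 93 with water in wild type, with differences of 3.12 and 2.35 in dor and 2.25 and 3.50 in wild type. DELTA-OAT, the ornithine aminotransferase gene, had 2674 and 1701 in dor and 1508 and 1117 in wild type under drought, against 240.4 and 552 in dor and 216 and 380.5 in wild type under control watering, with differences of 3.48 and 1.62 in dor and 2.80 and 1.55 in wild type. Its replicate 2 differences lie just above the threshold in both genotypes.

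The list of amino acid breakdown genes from which these come holds 21 loci, and 10 of them have a named probe set here, all tested. In the comparison of drought with control 1 of the 10, AT4G33150, passed limma's test in dor (0.316% of all tested probe sets were called higher) and 0 did in wild type (0.00644%), where 9 of the 10 differences were positive and 4, all positive, had an unadjusted p under 0.05, beside 1482 of the 15523 tested. The contrast chose AT4G33150, MGL and DELTA-OAT, so that call and the p-values of these 3 genes are a description. They are 3 of the 4 genes under 0.05 in wild type, and IVD, described next, is the only one not chosen. The 7 genes that are not members did not reach 1.5 in every pair. IVD, the isovaleryl-CoA dehydrogenase gene of leucine breakdown, had signals of 4276 and 1234 under drought in dor, 1558 and 719.8 under drought in wild type, 114 and 463 with water in dor and 88.1 and 342 with water in wild type, and its pair differences were 5.22 and 1.41 in dor and 4.14 and 1.07 in wild type. MCCA and MCCB, the subunit genes of methylcrotonyl-CoA carboxylase in the same pathway, differed by 4.35 and 0.98 in dor and 3.92 and 0.43 in wild type for MCCA and by 2.34 and 0.75 in dor and 2.66 and -0.37 in wild type for MCCB. ETFQO, ETFBETA and ETFALPHA, genes of the electron transfer path fed by these enzymes, and D2HGDH, the 2-hydroxyglutarate dehydrogenase gene, reached at most 3.28 in any pair (D2HGDH, dor replicate 1) and 0.52 in any pair of replicate 2 (ETFALPHA, wild type). The median over the 10 was 3.20 and 0.87 in dor replicates 1 and 2 and 2.46 and 0.47 in wild type. Both replicate 1 pairs reached 1.5 for 7 of the 10 and both replicate 2 pairs for 3, the members. Over the array 1850 and 335 of 22746 probe sets did so, with the probe sets dropped by the rule left out. The 3 members were chosen for passing every pair. The dor comparison made 88 calls over the whole array (0.567%), 0.316% higher and 0.251% lower. Only 5 were made when dor control replicate 1 was left out, and 0 when dor drought replicate 1 was. Leaving out the first or the second wild type drought array gave 57 or 56.

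**Figure D3:**
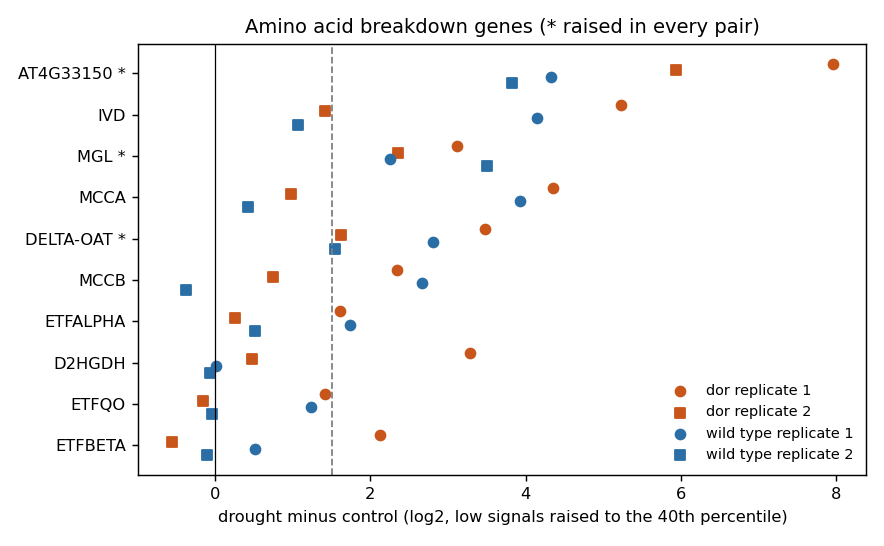
Drought minus control difference (log2, low signals raised) of the 10 amino acid breakdown genes in each pair; asterisks mark AT4G33150, MGL and DELTA-OAT. Orange is dor and blue wild type, circles are replicate 1 and squares replicate 2, and the dashed line is 1.5; 7 genes pass it in both circles and 3 in all 4 points.

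Of members that handle carbohydrate, 2 belong to enzyme families that act on starch. PWD (AT4G24450), of the family of glucan, water dikinases that phosphorylate starch, had 516 and 2014 in dor and 513 and 1079.7 in wild type under drought, against 18.8 and 416 in dor and 9.2 and 184 in wild type under control watering, so its replicate 1 control arrays lie under the floor. AMY1, the alpha-amylase gene, had 2012 and 3681 under drought in dor, 746 and 459.9 under drought in wild type, 76.5 and 118 with water in dor and 31.9 and 129 with water in wild type. Both dor drought arrays of AMY1 lie above both wild type drought arrays. TBL38, a trichome birefringence-like gene whose family acts on wall polysaccharides, had 5578 and 1538 in dor and 3912 and 1898 in wild type under drought, against 453 and 236 in dor and 528 and 148 in wild type under control watering. PWD and AMY1 were chosen after their values were seen.

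Of transport genes, AT2G41190, of the amino acid transporter family, had 13094 and 7922 under drought in dor, 1340.2 and 3937 under drought in wild type, 229 and 244 with water in dor and 144 and 122 with water in wild type. The GABA transporter gene AT1G08230 had 995 and 1074 in dor and 1243 and 772 in wild type under drought, against 142 and 210.5 in dor and 95.5 and 140.2 in wild type under control watering, and its genotypes overlap under drought, while both dor control arrays lie above both wild type control arrays. OCT4, an organic cation and carnitine transporter gene named after its values were seen, had 483 and 411 under drought in dor, 802 and 265 under drought in wild type, 52.6 and 122 with water in dor and 12.3 and 89 with water in wild type. AT1G69480, of the PHO1 phosphate exporter family, had 705 and 792 in dor and 190.3 and 515 in wild type under drought, against 72.8 and 95.7 in dor and 9.9 and 31.8 in wild type under control watering. Both of its dor arrays lie above both wild type arrays in each condition, though both wild type control signals lie under the floor.

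Of members known from signalling and protein turnover, GID1B, a gibberellin receptor gene, had 1159.9 and 1119 under drought in dor, 629.5 and 803 under drought in wild type, 75.7 and 242 with water in dor and 109.7 and 97.1 with water in wild type. The SINA-like family gene AT3G13672 had 5198 and 4442 in dor and 787 and 2352 in wild type under drought, against 65.4 and 97.3 in dor and 44.1 and 92.5 in wild type under control watering. UBC32, an E2 conjugating enzyme gene of endoplasmic reticulum-associated degradation, had 9738 and 3766 under drought in dor, 2857 and 3005 under drought in wild type, 812 and 1229.9 with water in dor and 619.8 and 676 with water in wild type. In these genes every drought array lies above every control array. SKP2A, an F-box gene, had 6781 and 3647 in dor and 4624 and 2247 in wild type under drought, against 1062 and 1226 in dor and 801 and 414 in wild type under control watering. AT4G31860, a type 2C protein phosphatase gene, had 4604 and 3421 under drought in dor, 1756 and 2999.7 under drought in wild type, 167 and 1143 with water in dor and 336 and 790.3 with water in wild type. Its control arrays of replicate 2 lie well above those of replicate 1. Among transcription factor genes HAT2, of the HD-ZIP class, had 2277 and 2085 in dor and 4386 and 1385 in wild type under drought, against 459.8 and 525 in dor and 489 and 344 in wild type under control watering. The MYB family gene AT5G04760 had 3513 and 2703 under drought in dor, 3493 and 1871 under drought in wild type, 667 and 669.6 with water in dor and 418 and 391 with water in wild type. The PLATZ family gene AT1G21000 had 13863 and 9785 in dor and 16620.5 and 6172 in wild type under drought, against 2485 and 3162 in dor and 2482 and 701 in wild type under control watering. The lowest drought signals of these factors stayed above their highest control signals. GID1B, UBC32, SKP2A, AT4G31860, HAT2, AT5G04760 and AT1G21000 were chosen after their values were seen.

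Enzymes of other classes include UGT73B5, a glucosyltransferase gene, with 1621 and 743 under drought in dor, 663 and 456 under drought in wild type, 8.4 and 88.1 with water in dor and 4.1 and 42.7 with water in wild type. The remorin gene AT5G23750, a membrane-raft protein family, had 3489 and 3396 in dor and 2059 and 3377 in wild type under drought, against 331 and 396 in dor and 396 and 214 in wild type under control watering. The aspartyl protease gene AT5G37540 had 3037 and 2411 under drought in dor, 676 and 1814 under drought in wild type, 86.9 and 292 with water in dor and 136 and 135 with water in wild type. In these genes every drought array lies above every control array. AT3G48020 had 6944 and 1825 in dor and 976 and 1040.4 in wild type under drought, against 104 and 106 in dor and 80.5 and 64.5 in wild type under control watering, and AT1G67920 had 6169 and 3082 under drought in dor, 5436 and 2226 under drought in wild type, 246 and 352 with water in dor and 158 and 165 with water in wild type. AT1G64360 had 13579.6 and 12355 in dor and 9098 and 8932 in wild type under drought, against 1394 and 2212 in dor and 1369 and 1309 in wild type under control watering, so it was well above the floor in watered leaves too.

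Among members with a gene name, the smallest ranges over the 4 pair differences were those of CuAO1, AT5G66490, AT2G21180 and AT3G63050. CuAO1, a copper amine oxidase gene that oxidizes polyamines, had 1676 and 2457 under drought in dor, 1343 and 1446 under drought in wild type, 365 and 575 with water in dor and 268 and 316 with water in wild type, and its differences were 2.20 and 2.10 in dor and 2.32 and 2.19 in wild type. AT5G66490 had 4473 and 2706 in dor and 4372 and 1957 in wild type under drought, against 1557 and 695 in dor and 1405 and 644 in wild type under control watering, with differences of 1.52 and 1.96 in dor and 1.64 and 1.60 in wild type. The widest ranges among them included AT1G11210, with 3226 and 3493 under drought in dor, 5277 and 1437 under drought in wild type, 17.3 and 175 with water in dor and 9.8 and 499.8 with water in wild type and differences of 5.65 and 4.32 in dor and 6.47 and 1.52 in wild type. Its second wild type pair is the smallest by far.

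At the threshold, AT4G28085 lies just inside with a smallest difference of 1.51, as do 2 probe sets without a gene name, and AT5G03230 lies just outside with 1.486, as do 2 unnamed probe sets at 1.487 and 1.499. AT5G03230 had 1411 and 2834 in dor and 1544 and 2468 in wild type under drought, against 504 and 542 in dor and 542 and 382 in wild type under control watering.

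In the probe annotation 77 of the 171 stand for 1 gene, 2 for several and 92 are not listed, so each member is counted as 1 probe set. Of the 77, 76 were found in the gene table, 16 with a symbol and 60 with a locus alone. In the probe annotation 45.0% of the members stand for 1 gene against 59.4% of all probe sets, so the genes named here are a minority of the set. The 76 genes span a median of 1778 bases, against 2105 for 13286 genes of the array. Of the 76, 21.1% are under 1000 bases and 18.4% over 3000, against 13.3% and 25.9%. No 2 of them lie within 3 protein-coding genes of each other, by the order of the gene table.

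The genotypes were compared within each condition, a contrast the choice of the probe sets did not use, though the same arrays chose them. Under drought 145 of the 171 were higher in dor than in wild type (84.8%), with a median difference of 0.82 (-1.49 to 4.22), against 49.9% and a median of 0.00 over all 15523 tested. Under control watering 137 were higher (80.1%), with a median of 0.52 (-3.17 to 2.59), against 48.6% and -0.01. Over both conditions 155 were higher (90.6%), with a median of 0.64, against 48.4% and -0.02. None of these differences was called: limma gave 0 of 171 members at an adjusted p under 0.05 in the 3 comparisons, beside 0.0% of the tested probe sets, and every member's adjusted p was 1.0 after rounding. At an unadjusted p under 0.05 there were 27, 6 and 31 of the 171, and 492, 71 and 308 of all tested. The counts and medians describe the set and were given no test of their own. With a random block for arrays of like condition and number, limma called 22 probe sets under drought, 1 higher and 21 lower, of which 0 are members.

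Both dor arrays lay above both wild type arrays for 93 members under drought (54.4%, against 15.1% of all tested) and below them for 2 (against 15.1%). Under control watering the counts were 56 above (32.7%, against 7.57%) and 5 below (against 7.47%). Members with no control array under the floor numbered 93. They gave medians of 0.62 under drought and 0.39 under control watering, with 80 of 93 higher in dor in each. For comparison, the 132 probe sets lowered by the mirrored threshold had medians of -1.52 under drought and -0.47 under control watering, with 9 and 17 of 132 higher in dor.

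**Figure D4:**
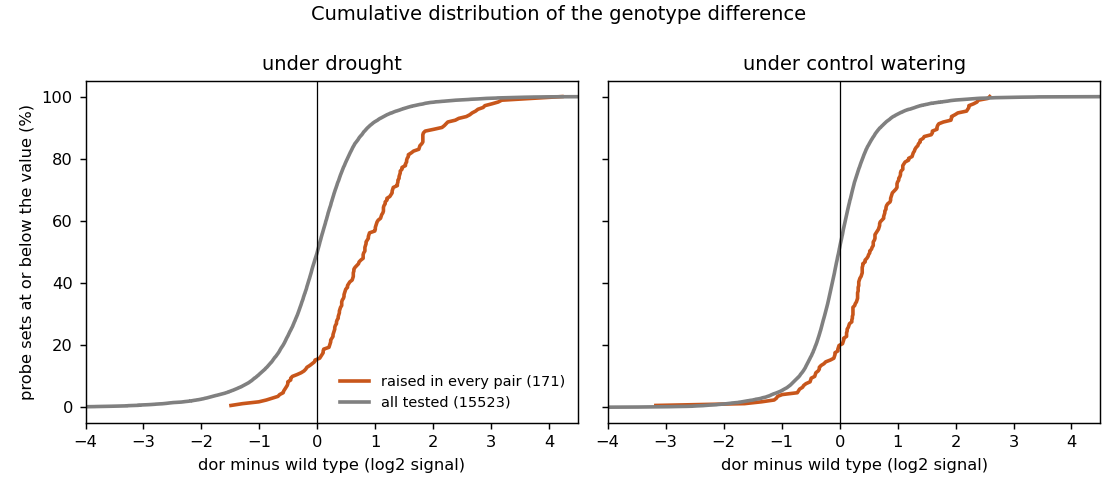
Cumulative share of probe sets (%) at or below each dor minus wild type difference (log2), under drought (left) and control watering (right); orange is the 171 members, grey all 15523 tested. The orange curve lies right of the grey, with medians of 0.82 and 0.52 against 0.00 and -0.01.

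Within replicate 1 the members' median was 0.88 under drought (128 higher in dor, all tested 0.00) and 0.24 under control watering (111 higher, all tested 0.02). Within replicate 2 it was 0.75 (147 higher, all tested -0.01) and 0.81 (144 higher, all tested -0.03). The RNA extraction wording crosses replicate and genotype: dor replicate 1 and wild type replicate 2 name a plant reagent before the RNeasy kit, and the others name the kit alone. Within the longer wording the median was 1.23 under drought (141 higher, all tested -0.24) and -0.09 under control watering (83 higher, all tested -0.44). Within the shorter wording it was 0.64 (121 higher, all tested 0.24) and 1.16 (145 higher, all tested 0.41). Under control watering the members' median was 0.10 without dor control replicate 2 (92 higher in dor, all tested -0.18) and 1.09 without dor control replicate 1 (155 higher, all tested 0.23). It was 0.41 without wild type control replicate 1 (102 higher, all tested -0.27).

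The largest dor excess under drought among named members was that of AT1G05340, at 3.18 ± 0.89, whose signals are given above, followed by AT4G20320 at 2.86 ± 1.32 and AT4G33150 at 2.73 ± 0.85. AT5G15190 was next at 2.38 ± 0.60, with 2305 and 2897 under drought in dor, 379.9 and 649.6 under drought in wild type, 68.9 and 132 with water in dor and 70.1 and 84.3 with water in wild type. The errors are standard errors of the limma fit, and the adjusted p of each was 1.0. The lowest named members under drought were AT1G67600 at -1.29 ± 0.89, AT5G09570 at -1.01 ± 0.72, AT1G08310 at -0.88 ± 1.30 and CYP78A9 at -0.59 ± 0.74. AT1G67600 had 665 and 1286 in dor and 5469 and 939 in wild type under drought, against 95.7 and 220.3 in dor and 45.5 and 51.8 in wild type under control watering, so its low value comes from replicate 1, in which wild type drought stood at 5469. AT1G08310 had 407 and 1231 under drought in dor, 3337 and 505 under drought in wild type, 28.6 and 206 with water in dor and 10.9 and 52.4 with water in wild type. AT5G09570, of the twin-cysteine mitochondrial protein family, had 185 and 604 in dor and 746 and 608 in wild type under drought, against 47.2 and 51.3 in dor and 40.2 and 62.8 in wild type under control watering. CYP78A9, a cytochrome P450 gene known for promoting growth of fruits in Arabidopsis, had 291 and 708 under drought in dor, 617 and 761 under drought in wild type, 66.1 and 204 with water in dor and 80.8 and 108 with water in wild type, and its groups overlap under drought.

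Under control watering the highest named members were AT1G69480 at 2.23 ± 0.80, AT3G14280 at 1.92 ± 0.90, AT1G73040 at 1.79 ± 1.51 and AT2G41640 at 1.71 ± 0.66. Both wild type control signals lay under the floor for AT1G69480 and AT2G41640, as did 3 of the 4 control signals for AT3G14280. The sizes of these differences therefore rest partly on signals under the floor. AT3G14280 had 2203 and 1549 in dor and 1096 and 1739.8 in wild type under drought, against 38.1 and 283 in dor and 31.2 and 24.1 in wild type under control watering, so replicate 2 holds nearly all of the difference. AT1G73040, of the mannose-binding lectin family, had 2025 and 2494 under drought in dor, 556 and 1264 under drought in wild type, 41.4 and 232 with water in dor and 4.9 and 165 with water in wild type, with replicate 1 control arrays under the floor. AT2G41640, of a glycosyltransferase family, had 853 and 652 in dor and 558 and 309 in wild type under drought, against 95.2 and 192 in dor and 32.1 and 53.2 in wild type under control watering. The lowest named members were AT4G23680 at -1.64 ± 0.82, AT4G20320 at -1.07 ± 1.32, AT2G43800 at -0.99 ± 0.87 and AT4G33150 at -0.69 ± 0.85. AT4G23680, of the MLP-like family, had 1228 and 1578 under drought in dor, 218 and 396 under drought in wild type, 5.7 and 5.7 with water in dor and 10 and 31.5 with water in wild type, all 4 control values under the floor. AT2G43800, a formin gene of actin assembly, had 335 and 704 in dor and 432 and 1129 in wild type under drought, against 73.3 and 70.8 in dor and 65.5 and 313 in wild type under control watering. Over both conditions AT1G05340 reached 1.74 ± 0.75, DI21 1.74 ± 0.63, AT1G69480 1.74 ± 0.54 and AT1G73040 1.61 ± 1.01. The lowest values of named members were -0.76 ± 0.58 for AT2G43800, -0.52 ± 0.49 for AT5G09570, -0.14 ± 0.50 for CYP78A9 and -0.03 ± 1.18 for AT1G11210.

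Of the 18 lists with 295 loci drawn up for drought, ABA and leaf biology, 39 loci have a named probe set, 32 were tested and the 3 amino acid breakdown genes are the members. The lists of ABA receptors, group A protein phosphatases, SnRK2 kinases and ABA-response transcription factors have 0 named probe sets, so these parts of the pathway are not analysed here. The drought and ABA effectors have 9 of 39 loci with a probe set and 7 tested, of which LTI30 alone was called higher under drought in dor (0.316% of all tested probe sets) and 0 in wild type (0.00644%). In wild type 6 of the 7 had an unadjusted limma p under 0.05, beside 1482 of the 15523 tested, and in 1 of these, COR15B, the difference was negative. COR15B, which codes for a chloroplast protein like COR15A, had 760.4 and 1970.1 under drought in dor, 236 and 556 under drought in wild type, 718 and 372 with water in dor and 1045 and 8674 with water in wild type, with pair differences of 0.08 and 2.40 in dor and -2.15 and -3.96 in wild type. LTI30 and HIS1-3 met the threshold and were among those set aside, and the other 5 missed it in at least 1 pair. The same contrast picked out LTI30 and HIS1-3, so the call of LTI30 and the p-values of both are a description. COR15A, which protects chloroplast membranes from water loss, had 35583 and 22806 in dor and 1613 and 8004 in wild type under drought, against 3274 and 615 in dor and 2229 and 11241 in wild type under control watering, and its wild type drought and control arrays overlap. COR47, a dehydrin gene, had 30059 and 22750.2 under drought in dor, 11597 and 9772 under drought in wild type, 663 and 1162 with water in dor and 606 and 5929.6 with water in wild type, and its second wild type pair differed by 0.72. LEA4-5 had 9934 and 3728 in dor and 158 and 2109.5 in wild type under drought, against 161 and 63.1 in dor and 88.5 and 19.2 in wild type under control watering, with 0.84 in the first wild type pair. Outside this list, STZ, a zinc finger repressor gene, missed by its second wild type pair at 1.32, with 7859 and 3036 under drought in dor, 4570.0 and 673 under drought in wild type, 414 and 749 with water in dor and 198 and 269 with water in wild type. Of the leaf senescence list 4 of 19 loci have a probe set. SAG29, which met the threshold and was set aside, was called higher under drought in dor, beside 0.316% of all tested probe sets. That call too is a description, and the regulator genes WRKY53 and WRKY6 reached 1.5 in neither replicate 2 pair.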

How the data were processed

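RNA from 8 leaf samples was hybridised to ATH1 arrays. The authors deposited 1 linear intensity per probe set and array, made with GCOS and MAS5 per the submitters' processing notes (versions and the tool's scaling are not stated there). The mean intensity after trimming lay at 500 on each deposited array. Here signals under 1 were set to 1 (399 values), log2 was taken, and a probe set was tested if at least 2 arrays reached the 40th percentile of their own array, which left 15523 of 22746 after 64 control probe sets were dropped. The R package limma (3.58.1, under R 4.3.3; lmFit, then eBayes with a trend on intensity; two-sided tests, Benjamini-Hochberg over all tested probe sets, threshold 0.05) compared 4 group means (4 residual degrees of freedom), and an additive model of condition and genotype (5) gave the genotype difference over both conditions. The pipeline was run on simulated data with independent noise. The replicate and extraction differences of these arrays were not simulated, so that run does not measure the reliability of the calls here. Genes were named through a probe table and a RefSeq gene table; coordinates and sequences are not given.

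Members and lists were chosen with earlier results of these data known. Named members are the 24 with the largest smallest pair difference, those on a list, and the 4 highest and 4 lowest per genotype comparison. Genes at the threshold and members of widest and narrowest range were also named. Other members are marked as chosen after their values were seen. Genes on the lists that are not members, such as COR15A, COR15B, COR47, STZ, IVD, MCCA and MCCB, fall outside this rule. They carry no such mark where described, but should also be read as chosen with their values known. Replicate numbers do not pair arrays by the labels. Alternatives were other scaling, offset, filters, no trend, blocks for replicate or extraction wording, and each array left out. Python 3.11.15 with pandas 2.3.3 and matplotlib 3.10.9 made the figures.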

Additional observations from a re-analysis of the deposited data

Results flagged for a closer look

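In 4 of the 39 named members dor lay above wild type under drought in both replicates and below it under control watering in both. The share of all tested probe sets with this pattern was not counted, so the count is a description. For AT4G33150 the replicate 2 control signals were nearly equal, at 162 in dor and 165 in wild type. The drought difference minus the control difference was 1.63 for AT3G53980, 3.42 for AT4G33150, 1.81 for AT5G45310 and 3.88 for AT4G23680 on the log2 scale, and this difference was not tested. AT5G45310 had 4796 and 1412 in dor and 1298 and 767 in wild type under drought, against 63 and 72.6 in dor and 92.3 and 89.5 in wild type under control watering. The control signals of AT4G23680 were under the 40th percentile on all 4 control arrays, and those of AT3G53980 and AT5G45310 on 2 and of AT4G33150 on 1, where values have no order. With low signals raised, the 4 pair differences of AT4G23680 were 4.26 and 4.22 in dor and 1.87 and 2.15 in wild type.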

How the results depend on the processing

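The number of members was 387 at a difference of 1 and 74 at 2. It was 202 with the floor at the 30th percentile, 129 at the 50th, 159 after quantile normalization, 148 after median centring and 117 when every drought array had to pass against every control array of its genotype. With only replicate 1 left it was 1850 and with only replicate 2 left 335. Leaving out 1 pair gave 185 to 355. In the dor drought comparison the calls numbered 88, and 153 after quantile normalization, 35 with extraction wording as a block, and 0 to 108 when arrays were left out in turn. In the wild type drought comparison the call numbered 1, and 3 after quantile normalization, 0 after median centring, 0 without the intensity trend, 0 with extraction wording as a block and 0 to 6 with arrays left out. With the replicate block there were 96 calls in dor and 1 in wild type, and 0 between genotypes in the 3 comparisons. By the labels alone, arrays in such a block share only a number. Deviations of same-number arrays correlated at 0.402 between genotypes under drought, 0.594 under control watering, and, between the conditions, at -0.036 in dor and 0.048 in wild type. The genotype comparison under drought gave 22 calls with a random block for arrays of like condition and number, and 0 in the other 16 alternatives. The comparisons under control watering and over both conditions gave 0 in all 17. Members higher in dor numbered 123 to 146 under drought, 92 to 155 under control watering and 132 to 160 over both over the alternatives. Of 408 gene-level alternatives for genotype differences 396 kept their direction and 12 turned, all with 1 array left out. Many of the 396 could not turn. Other filters, no trend and the blocks leave these differences unchanged, as does leaving out an array of the other condition for a difference within 1 condition. Over the arrays left out, AT4G33150 under control watering ranged from -1.90 to 0.53 (turned without dor control replicate 1), AT4G20320 from -3.03 to 0.89 (the same array), AT1G73040 from -0.75 to 4.32 (wild type control replicate 1) and AT2G43800 from -2.12 to 0.14 (wild type control replicate 2). Under drought AT1G08310 ranged from -2.24 to 0.49 (wild type drought replicate 1) and CYP78A9 from -1.23 to 0.05 (dor drought replicate 1). Over both conditions CYP78A9 ranged from -0.55 to 0.21 and was positive without dor drought replicate 1 (0.21), wild type drought replicate 2 (0.01) or dor control replicate 1 (0.10). AT1G11210 ranged from -1.10 to 1.17 and was positive when wild type drought replicate 1 (0.28), dor control replicate 1 (0.70) or wild type control replicate 2 (1.17) was left out. The cause was not tested. Of 468 alternatives for drought differences 416 moved by less than the standard deviation of the 2 replicates. Those that left out 1 replicate could not move further than this by construction, so the count is no measure of robustness for them. The drought difference of all tested probe sets had a median of 0.169 in dor and 0.16 in wild type, 0.049 in each after quantile normalization, and 0.056 in dor and -0.002 in wild type after median centring. Having 2 arrays per group limits every value, and signals near background limit the control values.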
